A study of Mus musculus with 41 samples.

Results

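The genes followed here encode the proteasome, the multi-subunit protease that breaks down ubiquitin-tagged proteins. They were chosen by name alone: probe sets annotated to a single symbol made of Psma, Psmb, Psmc, Psmd, Psme, Psmf or Psmg and a number, with the inducible subunits Psmb8 and Psmb9 left out. This gave 45 of the 18194 genes on the array, each represented by its brightest probe set on average. Of these, 17 encode the core particle, 17 the regulatory particle and 11 other parts (4 core chaperones, 3 regulatory chaperones, 3 activators and 1 inhibitor). The activator subunit Psme2 is not among them because its only probe set also carries the symbol Psme2b.

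As background, the core particle is a barrel of stacked rings. Its outer rings are built from alpha subunits, which gate the entrance, and its inner rings from beta subunits, of which Psmb5, Psmb6 and Psmb7 carry the active sites. The regulatory particle caps the barrel: its ATPases (Psmc genes) unfold the substrate and its non-ATPase subunits (most Psmd genes) bind ubiquitin, remove it or hold the lid together. Dedicated chaperones (Psmg genes for the core, Psmd5, Psmd9 and Psmd10 for the ATPase ring) help assembly and are not parts of the finished particle. In lymphocytes Psmb8, Psmb9 and Psmb10 can replace the standard active subunits to form the immunoproteasome, which cuts peptides for presentation on MHC class I.

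Expression was measured on 41 single-colour arrays of RNA from flow-sorted cells of Pax5 wild-type C57BL/6 mice, with no treatment. There were 7 arrays each of the common lymphoid progenitor (CLP), fraction A and fraction B of the Hardy scheme, and 5 each of fractions C to F. As background, A holds the earliest B-lineage precursors, B and C cover pro-B cells up to the large pre-B stage, D small pre-B cells, E immature and F mature B cells. The labels give no sort gates, tissue or age and do not state whether separate animals were used, so the tests speak of the spread among these arrays, part of which may be technical. In bulk samples, fewer cells of a type and less RNA per cell cannot be told apart.

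Fractions A and B were the least even groups. The median SD of a proteasome gene was 0.66 on the log2 scale in A and 0.35 in B, against 0.16 in D and in E. The 3′ probe set of Gapdh, divided by the 5′ probe set as a measure of RNA shortening, gave 12.7 ± 9.92 (SD, n = 7) for A, where B gave 7.52 ± 2.33 and the CLP 4.17 ± 0.519. The same ratio for actin was lower on average in A and B than in the CLP: it was 1.10 ± 0.124 in A, 1.07 ± 0.064 in B and 1.27 ± 0.069 in the CLP. The summed signal of 10 natural killer cell markers ranged from 39264 to 74946 in A but from 2000 to 3232 in the CLP, with 0 of the 10 under the array median on all A arrays. The summed signal of 8 pro-B and pre-B markers was 9089 to 83068 in A (median 19144) and 74687 to 93519 in B. That of 12 myeloid markers was 63742 to 88639 in C against 4775 to 21452 in B and 19442 to 26340 in D, and E replicate 2 reached 112837. The part of these cells in the results below was not tested.

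The words rose and fell are kept for genes with a limma p under 0.05 after Benjamini-Hochberg adjustment across the 11949 genes in the fit. Differences are on a log2(signal + 32) scale, which understates changes of low signals, and are given ± SE. Signals are in the authors' scaled MAS5 units, and levels of different probe sets are not compared. Comparisons of neighbouring populations share arrays, as do those against the CLP. Of the 45 genes, 44 passed the filter on low signals (at or above the array median on 5 or more arrays). Psmb11, the thymus-specific beta subunit, did so on 0 arrays, with signals of 1.3 to 87.6, and was not tested.

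Proteasome genes most often had their highest population mean in fraction B and their lowest in fraction F. Among the 44 tested, 36 (81.8%) differed across the 7 populations by limma's moderated F-test with Benjamini-Hochberg adjustment, against 73.3% of all genes tested. The highest population mean lay in B for 23 of the 44 genes and in F for 0, and the lowest mean lay in F for 19 and in B for 0. The same counts over all genes tested were not made, so these are not read as particular to proteasome genes. The distance between a gene's highest and lowest population mean had a median of 1.07 on the log2 scale for the 44 genes and 1.19 over all genes tested.

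Both particles had their highest mean in B and their lowest in F; a difference between them was not tested. Relative to each gene's own mean over the populations, the 16 tested core genes averaged 0.17 ± 0.122 (SD, n = 7) in the CLP, 0.14 ± 0.189 (n = 7) in A and 0.41 ± 0.094 (n = 7) in B. Fraction C then averaged 0.11 ± 0.210 (n = 5), D -0.16 ± 0.078, E -0.29 ± 0.104 and F -0.39 ± 0.153. For the 17 regulatory genes the CLP averaged 0.17 ± 0.187, A 0.05 ± 0.216, B 0.42 ± 0.139 and C 0.17 ± 0.287. Fraction D averaged -0.13 ± 0.060, E -0.30 ± 0.090 and F -0.39 ± 0.126. All arrays of D, E and F lay below 0 for both particles, and all B arrays lay above 0. Fraction C was divided: replicates 1 and 2 stood at 0.36 and 0.30 for the core and 0.47 and 0.48 for the regulatory particle, whereas replicates 3 to 5 lay at -0.13 to 0.012 and -0.13 to 0.074.

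**Figure D1:**
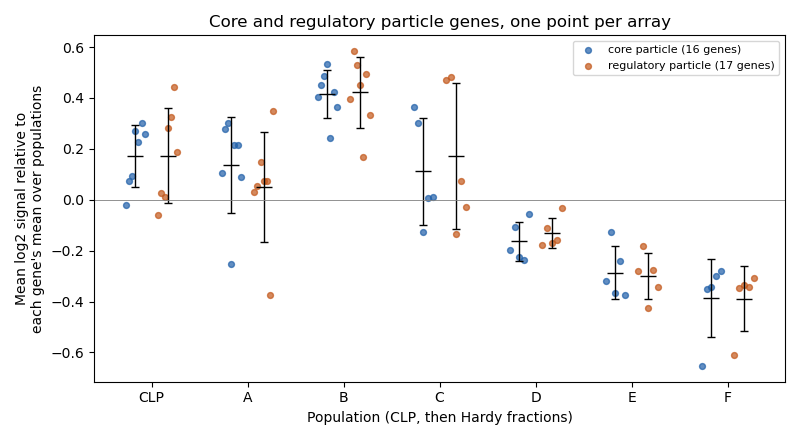
Mean log2 signal of the core particle genes (blue, 16 genes) and the regulatory particle genes (orange, 17 genes), each relative to the gene's mean over populations, by population on the horizontal axis. Each point is 1 array and the bars are the mean ± SD; both particles stand highest in B and fall below 0 on every array of D, E and F.

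Genes were also correlated across the particles. Over the 7 population means, the median Pearson r was 0.54 for the 120 pairs within the core, 0.57 for the 136 pairs within the regulatory particle and 0.58 for the 272 pairs across them. These are descriptions over 7 points that share the same arrays. Psmd12, a lid subunit, was most like the mean of the other core and regulatory genes (r = 0.98), followed by Psma5 (0.97), Psmd1 (0.96) and Psmb6 (0.96). The inhibitor Psmf1 (-0.70) and the activator Psme4 (-0.34) ran the other way.

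**Figure D2:**
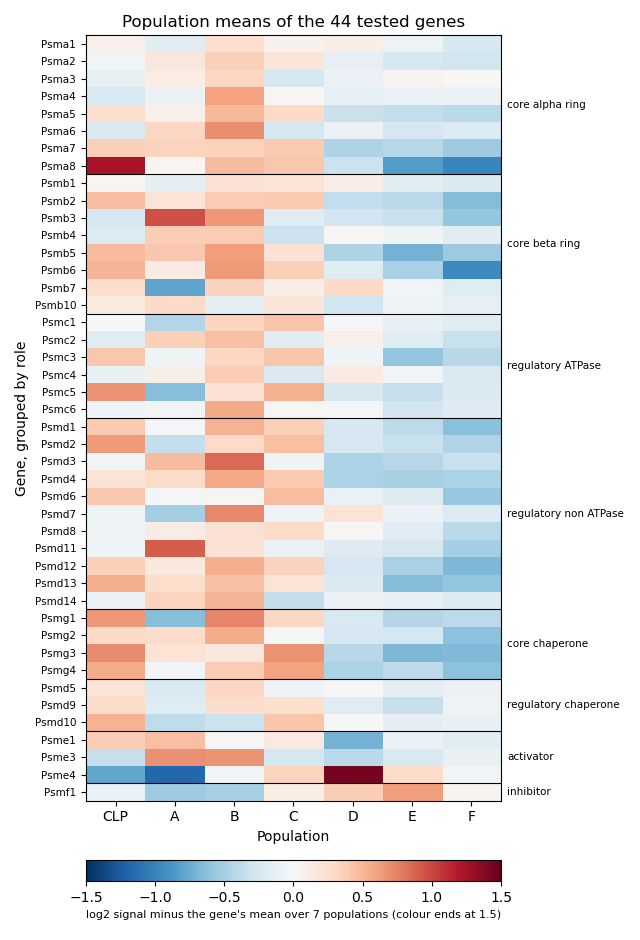
Population means of the 44 tested genes, in rows grouped by role, for the 7 populations in columns; colour is the log2 signal minus the gene's mean over populations. Most core, regulatory and chaperone rows are red in B and blue in F, whereas Psme4 is reddest in D and Psmf1 in E.

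From the CLP to mature B cells in fraction F, 20 of the 44 genes (45.5%) fell and 0 rose, by limma with Benjamini-Hochberg adjustment. At an unadjusted p under 0.05, 20 were lower and 1, Psme4, was higher. Over all genes tested, 26.6% were lower and 15.2% higher in F, and 7 of the 44 had a difference above 0. The median difference was -0.33 for core genes and -0.45 for regulatory genes, beside -0.15 over all genes tested. All 17 regulatory genes had a negative difference, of which 8 passed the test, and 12 of 16 core genes did, of which 6 passed. Arrays of the CLP and F did not overlap for any of the 20 genes that fell. They also did not overlap for Psmb7, lower in F, and Psme4, higher in F, neither of which was called. The share of all genes tested without overlap was not counted. In the same comparison 10 of 13 proliferation genes fell. The count of proteasome genes was 19 to 23 under the other normalizations and the replicate block and 19 to 20 when single arrays were left out.

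Among core genes, the active-site subunit Psmb6 (Entrez 19175) fell furthest of those with a high signal. Its signal was 2737 to 3727 on the CLP arrays (median 3190.5), 1370 to 3437 in A (median 2395) and 1887 to 4612 in B (median 3990.4). In C the arrays gave 3593, 3283, 2274, 2792 and 2428, in D 1908, 1829, 1723, 1785 and 2469, in E 1580.5, 1627, 1554, 1450 and 1574, and in F 1102, 1073, 1256, 1060 and 1103. Every F array was below every other array of the series for this probe set, and E and D lay between F and the CLP. The difference of F from the CLP was -1.47 ± 0.19 (adjusted p = 1.87e-08, limma).

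The other active-site subunits did not share one size of change. Psmb5 fell by 1.01 ± 0.22 (adjusted p = 0.000231, limma), from 1022 ± 165 (SD, n = 7) to 504 ± 141 (SD, n = 5). Psmb7 had a difference of -0.45, which did not pass, with signals of 3332 to 4504 in the CLP and 2039 to 3033 in F. Psmb2, a structural beta subunit, fell by 1.11 ± 0.16 (adjusted p = 2.86e-07, limma), from 3833 ± 359 to 1767 ± 250. Psmb10, the inducible partner that replaces Psmb7, had a difference of -0.26 that did not pass.

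In the alpha rings, Psma5, Psma7 and Psma8 fell. Psma7 fell by 0.90 ± 0.13 (adjusted p = 3.14e-07, limma), and its second probe set fell too. Psma8 (Entrez 73677) is the form known from testis, and it reached the array median on only 12 of 41 arrays. It gave 84.0 to 229 in the CLP (median 167), 4.6 to 323 in A (median 42.1) and 47.5 to 134.5 in B (median 90.9). The C arrays gave 105, 92.1, 73.0, 37.0 and 94.9, the D arrays 36.0, 64.9, 19.4, 8.7 and 58.1, the E arrays 7.7, 50.2, 7.7, 10.6 and 6.2, and the F arrays 6.3, 6.0, 3.9, 42.2 and 2.2. All CLP arrays lay above all arrays of D, E and F, with a difference of -2.21 ± 0.37 for F (adjusted p = 4.66e-06, limma), whose size depends on the 32 added before the log. Psma3, Psma4 and Psma6 had differences of 0.10, 0.14 and 0.01.

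In the regulatory particle, non-ATPase subunits made up most of the decrease, with 6 of 11 called against 2 of 6 ATPases; whether these shares differ was not tested. Psmd13, a lid subunit, fell by 1.12 ± 0.25 (adjusted p = 0.000291, limma), from 1584 ± 148 to 718 ± 128.1, and its 3 tested probe sets all fell. Psmd2, the large base subunit that docks ubiquitin shuttles, fell by 1.10 ± 0.18 (adjusted p = 3.44e-06), and Psmd12 by 1.03 ± 0.21 (adjusted p = 0.000136). For Psmd12 the signals were 1902 to 3018 in the CLP (median 2682) and 1041, 1196, 1590.2, 961 and 1094.5 in F, without overlap. Psmd1, the other large scaffold, Psmd6 and the ubiquitin receptor Psmd4 fell by 1.01, 0.97 and 0.68, and the ATPases Psmc3 and Psmc5 by 0.82 and 0.89. Psmd4 is uncertain: another of its probe sets was higher in F (0.85), and the call was lost without F replicate 1 (adjusted p = 0.0531).

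All 4 core chaperones fell from the CLP to F. Psmg3 fell by 1.38 ± 0.28 (adjusted p = 0.000132, limma), Psmg4 by 1.17 ± 0.36, Psmg1 by 1.03 ± 0.32 and Psmg2 by 0.91 ± 0.22. Psmg3 gave 443 to 707 in the CLP (median 458) and 92.1, 185, 198, 104 and 398 in F, so its arrays did not overlap. Of the regulatory chaperones, Psmd10 fell by 0.63 ± 0.26 (adjusted p = 0.0453) and lost its call when any 1 of 7 arrays was left out (adjusted p up to 0.156, without F replicate 4), while Psmd5 and Psmd9 had differences of -0.29 and -0.35 that did not pass. When probe sets of a gene were averaged in place of taking the brightest, Psma5, Psmd2, Psmd4, Psmg3 and Psmg4 lost their calls (adjusted p = 0.0818, 0.159, 0.935, 0.0912 and 0.113).

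**Figure D3:**
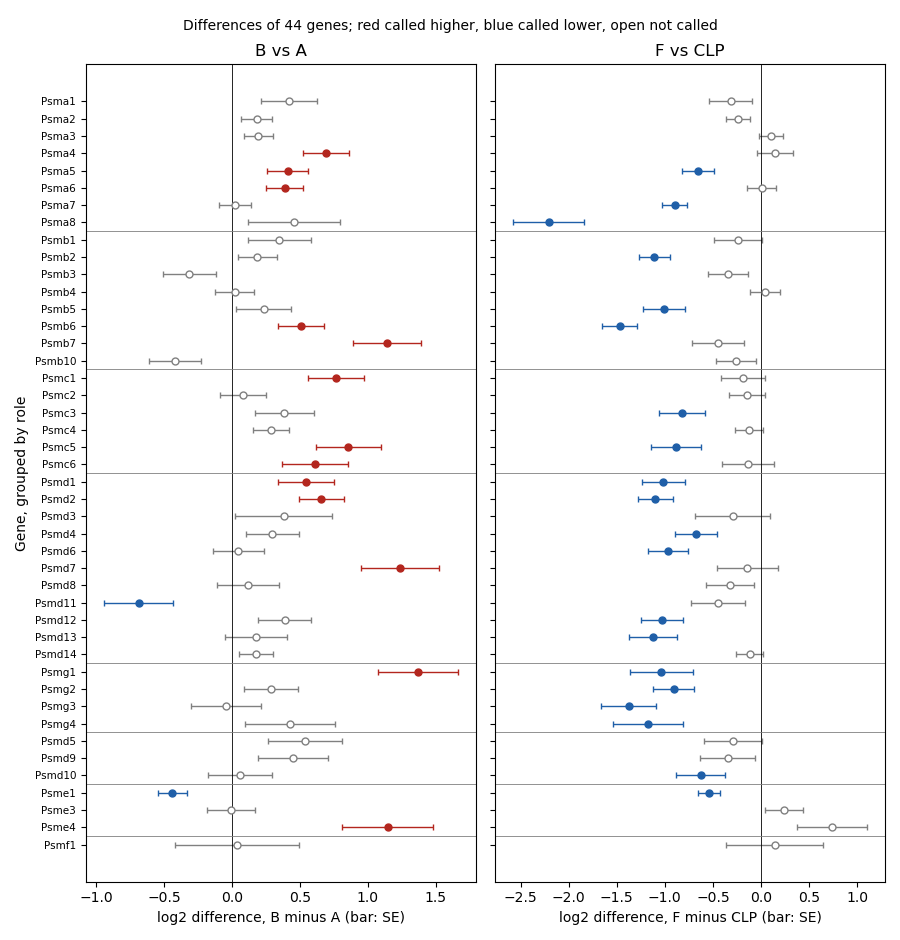
Log2 difference ± SE of each of the 44 tested genes, grouped by role, for B minus A (left) and F minus CLP (right). Filled red points were called higher, filled blue points lower and open points were not called; 13 genes are red on the left and 20 are blue on the right.

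Promoter sequence was looked up for genes that fell together. RefSeq windows of 300 bases (build GRCm38.p6, 250 before the start and 50 from it) matched 37 of the 45 genes. The 4 stretches shown are the 120 bases before the start of Psmb5, Psmd12, Psmg1 and Psmd6, which fell from the CLP to F and whose windows begin at the gene's own start. Capitals mark an antioxidant response element core (TGACNNNGC), the site of the proteasome gene activator Nfe2l1, in Psmb5 and an ETS core (CCGGAAG, either strand) in the others. The 4 genes were picked as holding these letters. Psma5, Psma7, Psmc5, Psmd1, Psmd10 and Psmg4 also fell and have windows at their own start, but these hold neither core.
Psmb5 (chr14:54617996-54618115, minus strand): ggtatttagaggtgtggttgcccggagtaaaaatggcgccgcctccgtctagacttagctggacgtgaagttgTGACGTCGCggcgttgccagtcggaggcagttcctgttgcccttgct
Psmd12 (chr11:107479408-107479527, plus strand): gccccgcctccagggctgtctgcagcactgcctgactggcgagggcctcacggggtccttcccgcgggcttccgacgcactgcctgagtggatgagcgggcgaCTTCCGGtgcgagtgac
Psmg1 (chr16:95990961-95991080, minus strand): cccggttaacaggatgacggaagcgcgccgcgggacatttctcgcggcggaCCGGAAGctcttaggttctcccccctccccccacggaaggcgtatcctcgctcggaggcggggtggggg
Psmd6 (chr14:14120946-14121065, minus strand): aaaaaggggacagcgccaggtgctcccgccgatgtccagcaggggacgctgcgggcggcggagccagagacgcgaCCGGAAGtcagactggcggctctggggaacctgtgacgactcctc

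On both strands, CCGGAAG was found in 14 of the 37 matched windows (37.8%) and in 9.93% of the windows of 27025 genes. The genes were Psma6, Psmc1, Psmc2, Psmc6, Psmd2, Psmd4, Psmd6, Psmd11, Psmd12, Psmd13, Psme3, Psme4, Psmg1 and Psmg3, which include genes that fell and genes that did not. TGACNNNGC was found in 6 (16.2%, against 14.0% of all genes): Psmb5, Psmb6, Psmc6, Psmd9, Psmd12 and Psme4. CCAAT occurred in 35.1% of the matched windows and 41.1% of all, CACGTG in 10.8% and 8.09%, and the core of the interferon-stimulated response element (GAAA, any 2 bases, GAAA) in 13.5% and 3.99%. A match is a description of letters and not a bound site. Of the genes tested as regulators, Nfe2l1 and its relatives, small Maf and NF-Y subunits and Ngly1, 1 of 9 rose (Maff) and 1 fell (Mafk) in F against the CLP, and 0 of 9 were called between neighbouring populations after B. Over all genes tested, 15.2% were called higher and 26.6% lower in F than in the CLP.

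In fraction B, 13 of the 44 genes (29.5%) rose above fraction A and 2 fell, beside 16.8% and 14.5% of all genes tested. The median was 0.29 for core genes, with 5 of 16 up and 0 down, and 0.38 for regulatory genes, with 6 of 17 up and 1 down, against 0.02 over all genes. The largest rises were in the core chaperone Psmg1 (1.37 ± 0.30, adjusted p = 0.000362, limma), the lid subunit Psmd7 (1.24 ± 0.29) and the activator Psme4 (1.15 ± 0.33). The alpha subunits Psma4, Psma5 and Psma6, the active subunits Psmb6 and Psmb7, the ATPases Psmc1, Psmc5 and Psmc6 and the base subunits Psmd1 and Psmd2 also rose. Psmd11 and Psme1 were called lower (-0.69 and -0.44). These calls rest on the spread shared by all populations: in a fit of A and B alone, 1 gene was called higher and 0 lower. With median centring, which moved the median over all genes from 0.02 to 0.21, the calls were 21 higher and 0 lower. Among 13 proliferation genes, 8 rose and 0 fell in the same comparison.

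Psmg1 kept its rise in B under every alternative and without each single array. Its signal was 899 ± 255 (SD, n = 7) in B against 392 ± 241 (SD, n = 7) in A, and the arrays overlapped. Psmd7 was 2082 ± 573 in B and 1016 ± 564 in A, but its other 2 probe sets gave -0.21 and -0.20, and with its probe sets averaged the difference was 0.28 (adjusted p = 0.235, limma). For Psme4 the difference was 0.43 with array weights (adjusted p = 0.103, limma). Without A replicates 4, 6 and 7, which were least like the rest of A and were left out after seeing the data, 13 genes were called higher and 1 lower, but only 6 of the 13 higher genes were shared with the fit on all arrays. Psma5, Psmb6, Psmb7 (1.14 to 0.32), Psmc1 (0.77 to 0.30), Psmd1, Psmd2 (0.66 to 0.34) and Psme4 (1.15 to 0.46) lost their calls, 7 others gained one, and Psmd11 went to a difference of -0.003. The calls of Psma5, Psma6, Psmb6, Psmc6, Psmd1 and Psmd11 were also lost without 1 or more single arrays. For example, Psmc6 (0.61 ± 0.24, adjusted p = 0.0499) went to an adjusted p of 0.227 without A replicate 4, and Psma5 to 0.135 without the same array.

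Against the CLP, whose arrays were more even, fraction B was higher for 12 genes (27.3%) and lower for 2, beside 8.78% and 18.9% of all genes tested. The core had 6 of 16 up and the regulatory particle 5 of 17, with 0 down in both, and the medians were 0.18 and 0.31 against -0.20 over all genes. The activator subunit Psme3 (1.03 ± 0.18, adjusted p = 2.61e-05, limma), Psma6 (0.91 ± 0.14) and Psmb3 (0.90 ± 0.19) were highest. Other probe sets did not share the rises of Psma6 (0.069, -0.017 and -0.36) and Psmb3 (-0.70), and none of these differences passed. Psma4, an alpha subunit, rose from 1616 ± 230 to 2901 ± 415 (0.83 ± 0.17, adjusted p = 0.000237) without overlap, under every alternative and without each single array. Psma2, Psma3, Psmb4, Psmc2, Psmc4, Psmc6, Psmd7 and the deubiquitinase Psmd14 rose as well. Psmd10 and Psme1 were lower (-0.84 and -0.35).

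How high B stood depended on the scaling. B arrays had the lowest medians of the series outside A (69.7 to 92.7, against 110.0 to 130.4 in the CLP). The median difference over all genes between B and the CLP was -0.20 as deposited, -0.019 after quantile normalization and 0.22 with each array centred on its median. The 12 higher and 2 lower calls became 7 and 4 with quantile normalization and 23 and 0 with centring. When probe sets were averaged, Psma2, Psma4, Psmd14 and Psme3 were the 4 called higher. Psma2, Psma4 and Psmd14 have 1 probe set each, so averaging could not change them. Psma3, Psma6, Psmb3, Psmb4, Psmc2, Psmc4, Psmc6 and Psmd7, which have several probe sets, lost their calls. Psmc6 lost its call when any 1 of 10 of the 14 arrays was left out (adjusted p up to 0.0827, without CLP replicate 2), and Psmd7 when any 1 of 8 was (up to 0.0773, without B replicate 5).

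Between the CLP and fraction A the genes moved in both directions. Of the 44, 7 rose (15.9%) and 6 fell (13.6%), beside 11.5% and 25.5% of all genes tested, and the medians were -0.048 for core and -0.20 for regulatory genes against -0.22 over all genes. The beta subunit Psmb3 (1.21 ± 0.19, adjusted p = 3.9e-06, limma), Psme3 (1.04 ± 0.18) and the lid subunit Psmd11 (0.96 ± 0.26) rose most, with Psma6, Psmb4, Psmc2 and Psmd14. The ATPase Psmc5 (-1.31 ± 0.24), the chaperone Psmg1 (-1.28 ± 0.30) and the alpha form Psma8 (-1.21 ± 0.34) fell most, with Psmb7, Psmd2 and Psmd10. Without A replicates 4, 6 and 7, Psmg1 (-0.49, adjusted p = 0.0989, limma), Psmb7 (-1.06 to -0.25) and Psmd10 (-0.90 to -0.43) lost their calls, and Psma8 had a median signal of 42.1 in A, below every array's median. With quantile normalization, which moved the median over all genes to -0.11, the split was 3 higher and 12 lower. With median centring the median over all genes was 0.007 and those of core and regulatory genes turned positive (0.183 and 0.032), as they did without A replicates 4, 6 and 7 (0.128 and 0.020).

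Most of the rises in A were not shared by other probe sets of the same gene. For 5 of the 7 genes that rose (Psma6, Psmb3, Psmc2, Psmd11 and Psme3) another probe set was called lower: the pair for Psmb3 gave 1.21 and -1.25, and that for Psme3 1.04 and -0.77. Of 21 genes with several tested probe sets, 14 had both signs in this comparison, within the range of 6 (E against D) to 17 (B against CLP) over the 8 comparisons. Genes with probe sets called in both directions numbered 5 here and 0 to 2 in the other comparisons. Psmc5 and Psmd2, which fell, kept their calls under every alternative and without each single array, and their arrays did not overlap. For Psmc5 the A arrays averaged 966 ± 485 (SD, n = 7) and those of the CLP 2109 ± 252 (SD, n = 7), and for Psmd2 1447 ± 486 and 2810.5 ± 506.

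**Figure D4:**
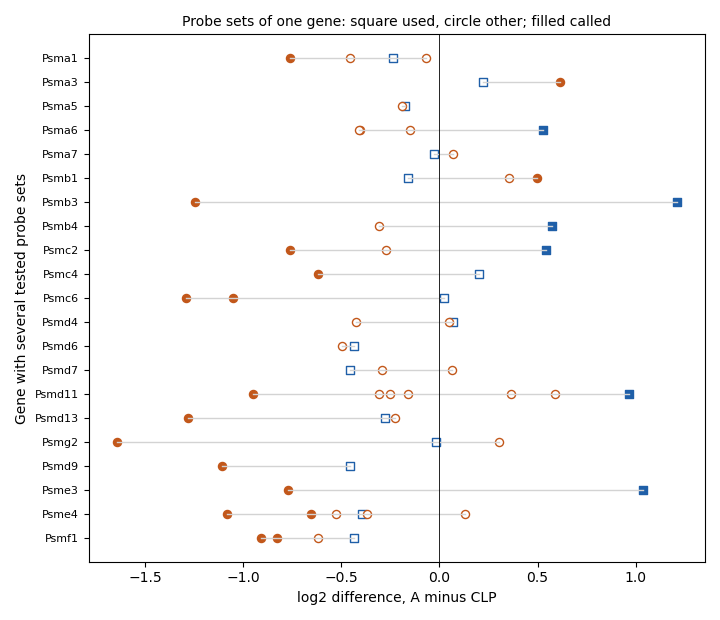
Log2 difference between A and the CLP for each tested probe set of the 21 genes with more than 1. Squares are the probe sets used here, circles the others, and filled symbols passed an adjusted p of 0.05; the squares of Psma6, Psmb3, Psmc2, Psmd11 and Psme3 lie to the right of 0 and a filled circle of the same gene lies to the left.

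Psmd11 (Entrez 69077) had the widest range of population means in the regulatory particle, and it came from A. Its signal was 2381 to 3886 in the CLP (median 3561), 3448.5 to 19296 in A (median 4590.0) and 1758 to 6264 in B (median 4431). The C arrays gave 3949, 3250.1, 2676, 3631 and 2702, the D arrays 2783, 3037, 2837, 3142 and 3152, the E arrays 2696, 2945, 2877, 2767 and 3043, and the F arrays 2086, 2620, 2627, 2534 and 2175. From C to F it moved little, and its A arrays spread over a wider range than all others together. Without A replicates 4, 6 and 7 its difference from the CLP was 0.28 (adjusted p = 0.252).

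Psmd3 (Entrez 22123), another lid subunit, had the next widest range and passed the F-test (adjusted p = 0.0132, limma) but was called in none of the 8 comparisons. It gave 266 to 862 in the CLP (median 476.5), 92.5 to 2686 in A (median 693) and 438 to 1470 in B (median 908). Its C arrays gave 535, 631, 429, 361 and 435, its D arrays 246, 248, 512, 403 and 371.5, its E arrays 459, 361, 305, 344 and 314, and its F arrays 296.5, 334, 520.5, 414 and 368. B overlapped with every other population.

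From B to C, 9 of the 44 genes (20.5%) fell and 1 rose, beside 8.8% lower and 14.2% higher over all genes. The core had 5 of 16 down and the regulatory particle 3 of 17, with medians of -0.22 and -0.20 against 0.19 over all genes. Psma6 (-0.96 ± 0.15, adjusted p = 4.56e-06, limma), Psme3 (-0.94 ± 0.20) and Psmd14 (-0.86 ± 0.14, adjusted p = 6.76e-06) fell most, followed by Psmb3 (-0.84), Psmb4, Psmc2, Psmc4, Psma4 and Psma3. Psmd14, which strips ubiquitin from substrates, went from 9463 ± 1004 (SD, n = 7) to 5214 ± 871 (SD, n = 5) without overlap and kept its call in every alternative. Psmd10 was called higher (0.73 ± 0.26, adjusted p = 0.033) and lost the call when any 1 of 7 arrays was left out. With the mean of probe sets 2 genes were called lower, Psma4 and Psmd14, which have 1 probe set each and could not change. All genes that fell and have several probe sets lost their calls. With array weights or median centring 18 genes were called lower. The other probe set of Psmb3 was higher in C (1.02). The split of 1 higher and 9 lower became 3 and 7 with quantile normalization and 0 and 18 with centring, which put the median over all genes at 0.006 and -0.23. Myeloid markers were higher in C (10 of 12 called) and proliferation genes lower (8 of 13), and their part in the result was not tested.

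From C to D, 11 of the 44 genes (25.0%) fell and 1 rose, beside 13.6% lower and 7.46% higher over all genes. The median was -0.22 for core genes (5 of 16 down) and -0.43 for regulatory genes (3 of 17 down) against -0.097 over all genes. Psmg3 (-1.09 ± 0.31), Psmg4 (-1.08 ± 0.39, adjusted p = 0.0418) and Psmd4 (-0.87 ± 0.23) fell most. Psma7 (-0.85 ± 0.14, adjusted p = 1.79e-05, limma), Psme1 (-0.85 ± 0.13, adjusted p = 3.38e-06) and Psmb2 (-0.76 ± 0.17, adjusted p = 0.00104) kept their calls under every alternative and without each single array, and Psma5, Psmd2, Psmb5, Psmb6 and Psmc5 also fell. With probe sets averaged, Psma5 (-0.031), Psmd2 (-0.063), Psmd4 (0.056), Psmg3 (-0.49) and Psmg4 (-0.54) lost their calls in this step. Psma7 gave 7364, 6997, 4775, 6122 and 5364 in C and 3010, 3289, 3745, 3182 and 3468 in D, so every D array was below every C array. Myeloid markers were lower in D (9 of 12 called). Of 13 proliferation genes, 3 rose and 0 fell in this step, against the direction of most proteasome genes. The part of either list was not tested. The count of lower genes was 7 without C replicate 1 or 2, or D replicate 1, 3 or 4, 18 with fraction A left out of the fit, and 20 in a fit of C and D alone. Psmb5, Psmb6, Psmc5 and Psmg4 were among those that lost their calls, and another probe set of Psmd4 was higher in D (1.00).

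The activator subunit Psme1 was lowest in fraction D. Psme1 (Entrez 19186) forms, with Psme2, an interferon-inducible cap that opens the core to peptides. Its signal was 7684 to 8391 in the CLP (median 7949), 6216 to 9663 in A (median 8754) and 5316 to 7233 in B (median 6092). The C arrays gave 8090.0, 7024, 5371, 7889 and 5936, the D arrays 3904, 3479, 4062, 3059 and 4421, the E arrays 5508, 6023, 5651, 5587 and 5972, and the F arrays 4930, 5496, 5606, 5747 and 5698. All D arrays lay below all other 36 arrays. The rise from D to E was 0.61 ± 0.13 (adjusted p = 0.0006, limma), the only call among the 44 genes in that step in the fit on all arrays. This call was kept under every alternative and without each single array.

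The inducible subunits, left out of the set by its rule, fell from the CLP to B (differences of -0.57 for Psmb8 and -0.85 for Psmb9), and Psmb9 rose by 0.66 from B to C. Psmb8 fell by 1.38 ± 0.17 from C to D (adjusted p = 2.24e-07, limma), from 3528 ± 735 to 1328 ± 237, and rose by 0.90 ± 0.17 to E (adjusted p = 0.000255). Psmb9 fell by 1.54 ± 0.24 from C to D and had a difference of 0.069 from D to E that did not pass. Of 10 immunoproteasome and class I genes, 6 fell from C to D and 0 rose, among them Nlrc5 (-2.19 ± 0.31), the class I transactivator, and the peptide transporter Tap1 (-1.75 ± 0.19). Over all genes tested, 13.6% were called lower and 7.46% higher in D than in C. Psmb10 had differences that did not pass in any of the 8 comparisons (F-test adjusted p = 0.113). The window of Psme1 holds the core of the interferon-stimulated response element on the minus strand within the 30 bases from the gene's start, in capitals:
Psme1 (chr14:55578494-55578523, plus strand): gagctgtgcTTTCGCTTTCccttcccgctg

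The activator Psme4 had the opposite sign to most other genes from B to C, from C to D and from the CLP to F. Of these differences, only that from C to D passed the test. In the other comparisons it had the sign of most genes. Psme4 (Entrez 103554) encodes a large cap that opens the core without ATP. It gave 669.5 to 993 in the CLP (median 727), 35.5 to 1296 in A (median 793.5) and 1025 to 2688 in B (median 1226). The C arrays gave 1759, 1527, 1910, 1956 and 1684, the D arrays 4285, 4153, 3785, 3716 and 3210, the E arrays 1548, 1772, 2045, 1577 and 1575, and the F arrays 1379, 1243, 1600, 1071 and 1501. Every D array lay above all other arrays of the series, and 5 of the 6 probe sets of the gene were called higher in D than in C. The rise from C to D was 1.10 ± 0.40 (adjusted p = 0.0406, limma), and the adjusted p was 0.0528 to 0.0832 when any 1 of 9 of the 10 arrays was left out. From D to E the difference was -1.16 (adjusted p = 0.0624), with a range of 2.1e-08 to 0.15 over the alternatives and single arrays left out, and 4 of the 6 probe sets were called lower.

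On the probe set used, Psme3, which forms the nuclear cap, was high in A and B (12551 ± 5294 and 11761 ± 2473). It had lower means in all other populations, with 5487 ± 650 in D and 6737 ± 1086 in F. Another of its probe sets was called lower in A than in the CLP (-0.77) and lower in D than in C (-1.29). That probe set was called higher in B than in A (0.57). The inhibitor Psmf1 was called in 0 of the 8 comparisons (F-test adjusted p = 0.248), with signals of 1.6 to 886 in A and 619 to 1201 in E. Psmd5 (Entrez 66998), a regulatory chaperone, had the narrowest range among the other parts. It gave 1588 to 2857 in the CLP (median 2321), 447 to 3094 in A (median 2346) and 1361 to 3352 in B (median 2466). The C arrays gave 1986, 2248, 1434, 1847 and 1564.5, the D arrays 1648, 2015, 1764, 1748 and 2168, the E arrays 1525, 2036, 1814, 1377 and 1843, and the F arrays 1784, 2006, 2073, 1455 and 1505. All populations overlapped (F-test adjusted p = 0.524).

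**Figure D5:**
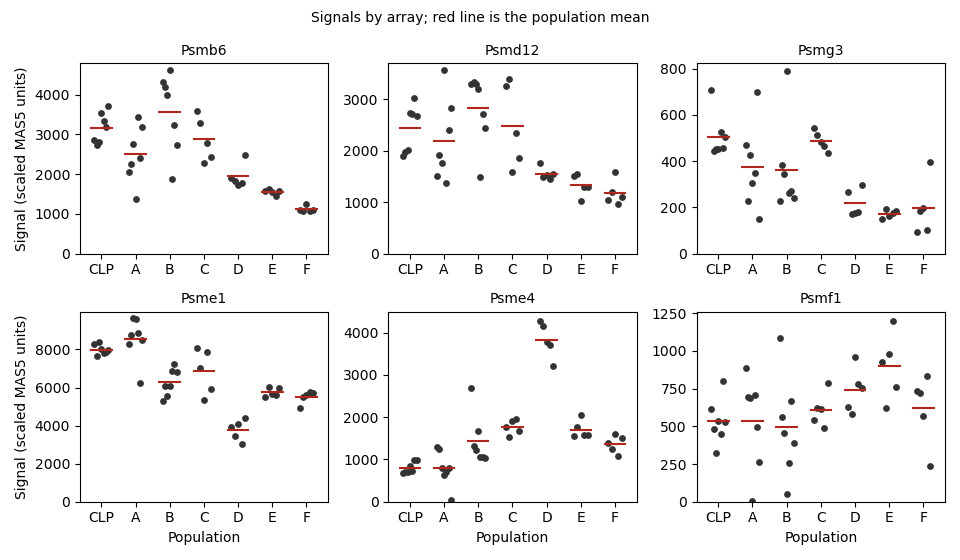
Signal in scaled MAS5 units (vertical axis, linear) of Psmb6, Psmd12, Psmg3, Psme1, Psme4 and Psmf1 by population; each point is 1 array and the red line is the population mean. Psmb6 is lowest on the 5 F arrays (1060 to 1256), Psme1 on the 5 D arrays (3059 to 4421), and Psme4 is highest on the 5 D arrays (3210 to 4285).

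The last step moved no gene past the test in the fit on all arrays. From E to F, 0 of the 44 rose and 0 fell by limma with Benjamini-Hochberg adjustment, beside 0.259% and 0.209% of all genes; at an unadjusted p under 0.05, 0 were higher and 1 was lower (Psmb6). The step had medians of -0.078 for core and -0.11 for regulatory genes. From D to E, Psme1 was the 1 gene that rose (2.27%, beside 3.89% of all genes) and 0 fell (4.21% of all genes); at an unadjusted p under 0.05, Psme1 was higher and Psme4 lower. With quantile normalization Psme1 rose and 1 gene fell. These calls rest on the spread shared by all populations. The median SD over all genes was 0.79 in A but 0.25 in D, 0.26 in E and 0.32 in F. Fits of only the populations compared, and array weights, called more of the 44 genes lower in both steps, as listed in the closing section. By size alone, 16 of 17 regulatory genes had a negative difference from D to E and 11 of 17 from E to F. Over all genes tested, 51.3% had a positive difference from D to E and 46.5% from E to F. From D to E 11 of 13 proliferation genes fell, and from E to F 0 rose and 0 fell.

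Of the 44 genes, 8 did not pass the F-test across populations: Psma1, Psmb1, Psmb10, Psmc6, Psmd5, Psmd8, Psmd9 and Psmf1. The range of their population means was 0.42 (Psmb1) to 1.16 (Psmf1) on the log2 scale.

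Other parts of the pathway, from lists drawn up for this purpose, were read beside these genes. Of 8 tested proteasome-associated genes, 6 fell from B to C and 0 rose, led by the deubiquitinases Uchl5 (-1.15 ± 0.17, adjusted p = 1.9e-06, limma) and Usp14 (-0.78 ± 0.26) and the small lid subunit Sem1 (-0.61 ± 0.13). From the CLP to F, 4 of the 8 fell, namely Txnl1, Usp14, Uchl5 and the core assembly factor Pomp (-0.65 ± 0.16), and 0 rose. Of 11 ubiquitin-conjugating and delivery genes, 5 rose and 0 fell from A to B. In F against the CLP 4 fell, among them the unfoldase Vcp (-1.15 ± 0.16, adjusted p = 1.81e-07) and the shuttle Ubqln4 (-1.31 ± 0.29), and the conjugating enzyme Ube2d3 rose (0.44 ± 0.16). The lists' medians for F against the CLP were -0.38 and -0.032, beside -0.15 over all genes. Of all genes tested, 8.8% were called lower from B to C and 16.8% higher from A to B. From the CLP to F, 26.6% of all genes were called lower and 15.2% higher.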

How the data were processed

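The deposited files hold 1 intensity per probe set, which the submitters' processing notes name as MAS5 signal. Per the labels' protocols, RNA was extracted with Arcturus PicoPure and amplified with NuGEN Ovation Pico. The authors scaled every array alike: the mean after trimming 2% at each end was 500.0 on all 41, and array medians were 69.1 to 153.1. No genome build was named in the labels or files. Of 45101 probe sets, 34958 carried 1 gene symbol in the platform annotation, 932 several, and 9211 were unnamed here. The 45 genes had 97 probe sets; of those used, 26 were of the plain type, 13 of type _a, 3 of type _s and 3 of type _x, and the last kinds can bind related transcripts.

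Signals entered as log2(value + 32), without renormalization. Genes at or above their array's median on 5 or more arrays (11949) were fitted with 7 group means in limma 3.58.1 (R 4.3.3; robust eBayes with trend) and a call needed p under 0.05 after Benjamini-Hochberg adjustment over those genes. The procedure was tested on simulated data. Alternatives changed the pseudocount (smaller and larger), the low-signal filter, the scaling (quantile, median centring), the probe set rule, the spread estimate (array weights, plain eBayes, fewer populations), added the replicate number as a block, or left out each array. Leaving out A replicates 4, 6 and 7, or B replicates 1 and 4, was chosen after seeing the data. The 20 genes with 1 probe set, among them Psma4, Psmb2, Psmc5, Psmd14, Psme1 and Psmg1, could not change when probe sets were averaged.

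Members, lists and comparisons were chosen with earlier results of these data known. The rule for named genes took the 3 largest called rises and falls per comparison, called genes that went against their role, and up to 3 called genes per context list. It gave values by array for the 2 widest ranges in each particle and the widest and narrowest among the other parts. Other genes, such as Psma7, Psmd12, Psme1 and Psmg3 by array, were named after their values were seen. Replicate numbers come from the sample titles. Arrays of different populations with the same number showed little shared deviation (median correlation 0.006 over 111 pairs, against -0.001 for different numbers). The numbers were therefore not used as pairs in the main fit. A weak shared effect could go unseen in this check, and the labels do not say whether equal numbers share a sort or animal. No arrays held identical values. The number of arrays limits the precision.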

Additional observations from a re-analysis of the deposited data

Results flagged for a closer look

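Single arrays stood apart from the rest of their population by Dixon's 95% criterion in 4 of 21 sets of particle means and in 27 of 308 sets of single genes (8.77%); chance flags about 1 in 20. For the core particle the lowest arrays were A replicate 4 (mean relative level -0.253) and F replicate 1 (-0.653), for the regulatory particle F replicate 1 (-0.611), and for the other parts the highest was F replicate 5 (-0.168).

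Among single genes, fraction A held 14 of the 27, from replicates 4, 6 and 7. In A replicate 4, Psma1 (log2 signal 9.641), Psmc6 (9.817), Psmd7 (7.506), Psmd9 (7.086) and Psmf1 (5.07) were lowest and Psma6 (14.503) and Psmc2 (14.085) highest. In A replicate 6, Psmb1 (8.933), Psmb5 (9.276), Psmd1 (9.606), Psmd8 (8.888) and Psme1 (12.609) were lowest and Psmd14 (13.887) highest, and in A replicate 7 Psme4 (6.077) was lowest. In fraction B, Psma5 (11.942) and Psmg2 (9.82) were lowest and Psmg3 (9.68) highest in replicate 4, and Psmd11 (10.806) and Psmd12 (10.573) were lowest in replicate 5.

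In the other populations, Psmb7 was highest in CLP replicate 7 (12.147) and Psmg3 in CLP replicate 1 (9.529). Psma1 was highest in D replicate 1 (11.511) and Psmb6 in D replicate 5 (11.288). Psma8 was highest in E replicate 2 (6.361) and in F replicate 4 (6.213), Psmb6 in F replicate 3 (10.331), and Psmb5 was lowest in F replicate 1 (8.225). The decrease from the CLP to F was counted as 19 to 20 genes without each single array, F replicate 1 included.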

How the results depend on the processing

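The count of genes lower in F than in the CLP (20) and of genes that differed across populations (36) stayed within 1.5 times under every alternative run. The shifts below were not traced to a cause.

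Median centring gave core medians of 0.183 (A against CLP), 0.483 (B against A), 0.608 (B against CLP) and -0.639 (C against B), and regulatory medians of 0.032, 0.573, 0.731 and -0.622. Its higher calls were 21 (B against A), 23 (B against CLP) and 0 (C against B), and its lower calls 0, 0 and 18, with 7 for D against C. Quantile normalization gave core and regulatory medians of 0.022 and 0.109 for B against CLP. Its higher calls were 3 (A against CLP), 7 (B against CLP) and 3 (C against B), and its lower calls 12 (A against CLP), 4 (B against CLP) and 1 (E against D). The mean of probe sets gave medians of 0.097 and 0.079 for B against CLP. Its higher calls were 2 (A against CLP), 4 (B against CLP), 2 (C against B) and 3 (F against CLP), and its lower calls 11 (A against CLP), 2 (C against B) and 1 (E against D).

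Array weights gave a core median of 0.291 for B against CLP, higher calls of 3 (C against B), 5 (D against C) and 1 (F against CLP), and lower calls of 7 (B against CLP), 18 (C against B), 22 (D against C), 5 (E against D) and 1 (F against E). Fits of only the populations compared gave 4 higher (A against CLP), 1 higher and 0 lower (B against A), 5 lower (B against CLP), 4 higher and 20 lower (D against C), 6 lower (E against D), 1 lower (F against E) and 1 higher (F against CLP). With fraction A left out, 6 were lower (B against CLP), 4 higher and 18 lower (D against C), 1 lower (E against D) and 1 higher (F against CLP). With no filter, 0 were higher for C against B, and 0 higher and 7 lower for D against C. The smaller pseudocount gave 0 higher for D against C, the larger 1 higher for F against CLP and 1 lower for E against D, and the 75th percentile filter 1 lower for E against D. Without A replicates 4, 6 and 7 the medians for A against CLP were 0.128 and 0.020, and 1 gene was lower for B against A; without B replicates 1 and 4 the core median for B against CLP was 0.289.

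The replicate block gave 1 gene lower for E against D, 10 for D against C and 19 for F against CLP, and moved no other count of calls. Leaving out single arrays gave 0 to 1 higher for C against B and for D against C, 7 to 13 lower for D against C, and 1 to 3 lower for B against A (1 without A replicate 7, B replicate 5 or B replicate 6).

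Differences that turned sign were those of Psma6 for A against CLP (-0.099 with quantile normalization, -0.109 with the mean of probe sets), and with that mean Psmb3 (-0.018 for A against CLP, 0.090 for C against B), Psmc2 (-0.163 for A against CLP) and Psmd4 (0.056 for D against C, 0.019 for F against CLP). Psmd11 was at 0.003 for B against A with array weights and Psme1 at 0.071 for B against CLP with median centring. Signals near background, such as those of Psma8 and Psmb11, limit what can be measured.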

Other observations

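The probe set shared by Psme2 and Psme2b, which belongs to no single gene, gave signals of 1982 to 2573 in the CLP (median 2243), 576 to 3125 in A (median 2340), 1499 to 2054 in B (median 1734.5) and 1662 to 2622 in C (median 2026). In D it gave 628 to 717 (median 688), in E 1460 to 1702 (median 1592) and in F 905 to 1682 (median 1493). The D arrays lay below those of the CLP, B, C, E and F, and overlapped with those of A. Psme2 encodes the partner of Psme1 in the same cap.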
